A study of Homo sapiens with 30 samples.

Results

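Genes that read out TGF-beta, activin or YAP signalling in epithelial cells, here TGFB2, INHBA, FST, CCN1, CCN2, THBS1, TGFBI, AXL and ANKRD1, were followed across knockdowns of checkpoint kinases in human breast epithelium. They were taken by name, with every probe annotated to them (CYR61 is the older symbol of CCN1 and CTGF that of CCN2), which gave 12 probes for 9 genes. All 9 genes passed the filter on detection and were among the 13721 genes tested. The cells were MCF-10A, a non-transformed human mammary epithelial line, and every culture overexpressed cyclin E, an activator of CDK2 that provokes replication stress. On that background each carried a stably acting short hairpin RNA (shRNA) labelled shATM, shATR, shCHK1, shCHK2 or shControl. The first 4 are directed against the kinases that signal DNA damage and stalled replication, and shControl served as the reference. Plates of 10 cm were seeded with 200000 cells and harvested after 48 hours. Each shRNA was measured on 3 bead arrays in each of 2 sets, which makes 10 groups and 30 arrays. What separates the sets was not stated in the labels, nor whether the 3 replicates were separate cultures, so each standard error (SE) and p-value below reflects only how far the arrays within groups differ.

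The genes belong to connected signalling systems. TGF-beta and activin ligands bind paired receptor kinases that phosphorylate SMAD2 and SMAD3, which enter the nucleus with SMAD4 and switch on genes such as TGFBI and THBS1, while follistatin, the product of FST, binds activin and keeps it from its receptors. YAP and its relative TAZ are coactivators held back by the Hippo kinases, and when nuclear they bind TEAD transcription factors at genes such as CCN1, CCN2, ANKRD1 and AXL. Several of these genes take input from both systems, and in breast epithelium their products act on matrix adhesion, migration and the epithelial to mesenchymal transition.

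The promoters of 4 of these genes are shown because they carry, or lack, the core letters that TEAD factors recognise. The sequences are from RefSeq (build GRCh38.p14), and each runs 5′ to 3′ on the strand of the gene over the 250 bases that end just before its annotated start. Capitals mark GGAATG or its reverse complement CATTCC. CCN2 and ANKRD1 were chosen as the members with most matches, THBS1 as a gene with 1 match close to the start, and FST as the gene that differed most between groups, which has none.
CCN2: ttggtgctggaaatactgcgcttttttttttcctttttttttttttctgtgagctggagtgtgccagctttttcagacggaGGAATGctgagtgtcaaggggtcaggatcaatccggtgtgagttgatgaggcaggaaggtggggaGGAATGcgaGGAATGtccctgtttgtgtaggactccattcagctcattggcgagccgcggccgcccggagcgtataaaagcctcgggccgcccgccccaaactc
ANKRD1: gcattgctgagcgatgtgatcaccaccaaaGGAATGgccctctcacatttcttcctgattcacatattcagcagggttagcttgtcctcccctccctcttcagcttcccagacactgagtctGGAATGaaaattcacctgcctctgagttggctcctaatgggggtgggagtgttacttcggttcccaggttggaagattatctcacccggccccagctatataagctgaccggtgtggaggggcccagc
THBS1: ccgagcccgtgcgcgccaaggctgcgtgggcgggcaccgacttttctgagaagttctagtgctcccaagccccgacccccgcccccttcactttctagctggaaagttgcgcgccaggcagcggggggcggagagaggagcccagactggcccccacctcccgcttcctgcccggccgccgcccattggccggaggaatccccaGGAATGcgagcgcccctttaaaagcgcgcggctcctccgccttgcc
FST: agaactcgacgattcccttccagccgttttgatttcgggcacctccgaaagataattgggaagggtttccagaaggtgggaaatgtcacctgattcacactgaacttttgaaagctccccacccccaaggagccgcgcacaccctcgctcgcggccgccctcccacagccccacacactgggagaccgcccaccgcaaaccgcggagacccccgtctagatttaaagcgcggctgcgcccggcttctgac
These windows lie at chr6:131951373-131951622 (minus strand) for CCN2, chr10:90921088-90921337 (minus strand) for ANKRD1, chr15:39580829-39581078 (plus strand) for THBS1 and chr5:53480379-53480628 (plus strand) for FST.

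The CCN2 window holds 3 matches, which begin 169, 104 and 95 bases before the start. ANKRD1 holds 2 matches, 220 and 128 bases before the start, and the match of THBS1 begins 46 bases before it. Of the 9 genes, 8 had an entry in the promoter table, and 5 of these had at least 1 match, the others being TGFB2 and the second of the 2 AXL promoters. Among all 35116 promoter windows of this length, 11.9% held a match and 0.0826% held 3 or more. The AP-1 letters TGANTCA, found in 6.57% of all windows, occurred in the windows of FST and ANKRD1. The short SMAD letters CAGAC or GTCTG, found in 38% of all windows, occurred in CCN2, AXL, THBS1, TGFB2 and ANKRD1. All motifs were searched on both strands, and 1 of the 6 TEAD matches in the printed windows, in ANKRD1, overlaps a SMAD match. A match describes the letters and does not show that a factor binds there.

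Levels are log2 values of background-corrected and quantile-normalized intensity. A gene was called when its limma p-value, adjusted by Benjamini-Hochberg over all 13721 genes, was under 0.05. The targeted transcripts were checked first. ATM differed by -0.67 ± 0.10 log2 units (SE) between shATM and shControl in set 1 and by -0.30 ± 0.10 in set 2. CHEK1 differed by -0.38 ± 0.11 between shCHK1 and shControl in set 1 and by -1.18 ± 0.11 in set 2, and CHEK2 by -0.55 ± 0.13 and -0.15 ± 0.13 between shCHK2 and shControl, the last of which was not called. Against the mean of the other 3 knockdowns of the set, ATM differed with shATM by -0.76 in set 1 and -0.67 in set 2. In that comparison CHEK1 differed with shCHK1 by -1.19 and -1.43, and CHEK2 with shCHK2 by -0.35 and -0.76. Each of these values was called. ATR was not lower on the arrays labelled shATR, where it differed from shControl by 0.65 ± 0.16 in set 1 and 0.03 ± 0.16 in set 2. Against the other knockdowns ATR differed there by 0.40 and 0.24, and neither was called. Its probe read above background on 11 of 24 knockdown and 2 of 6 control arrays, so those groups are named here by their label only. CCNE1, which encodes cyclin E1, lay between 6.08 and 7.91 on knockdown arrays and between 8.49 and 9.09 on control arrays. The first principal component held 57.6% of the variance and placed knockdown arrays between 9.23 and 30.9 and control arrays between -90.7 and -81.1.

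The knockdown and control populations also differed in genes that no shRNA here targets. CDKN2A, which MCF-10A is known to have lost, was detected by 2 of its 3 probes on 24 of 24 knockdown arrays and on 0 of 6 control arrays. The summed linear level of the 7 tested luminal markers (of 8 listed) ran from 7683 to 11616 on knockdown arrays and from 17147 to 23858 on control arrays. Its members did not all move alike: MUC1 differed by -7.51 to -5.68, GATA3 by -2.97 to -1.72 and KRT8 by -2.96 to -0.67, KRT19 was detected on 2 of 24 knockdown and 6 of 6 control arrays, EPCAM differed by -0.49 to 0.23 and KRT18 by 0.26 to 1.07. ESR1 was detected on 1 of 24 knockdown and 4 of 6 control arrays and differed by -0.53 to -0.16. Of the 5 tested basal markers (of 10), KRT5 differed from shControl by 0.16 to 2.65 and KRT14 by 0.06 to 5.57. LAMB3 ran from -0.64 to 1.79, ITGB4 from -0.63 to 1.25 and CDH3 from -1.25 to 1.10. All 5 basal markers were detected on all 30 arrays. Their sum ran from 17503 to 27901 on knockdown arrays of set 1, against 6811 to 7575 on control arrays, and from 7550 to 10220 on knockdown arrays of set 2, against 11072 to 11422 on control arrays, so that it stood above the controls in set 1 and below them in set 2. Fibroblast markers were near background: the sums of the 3 tested (of 7) ran from 68 to 217 on knockdown arrays and from 72.4 to 94.6 on control arrays, and COL3A1, PDGFRA and PDGFRB were detected on none. DCN was detected by at least 1 probe on 12 of 24 knockdown and 3 of 6 control arrays and differed by -0.59 to 2.12. COL1A2 was detected on 11 of 24 and 3 of 6 (-0.30 to 0.25), and COL1A1 on 6 of 24 and 0 of 6 (-0.21 to 0.31). PTPRC, the pan-leukocyte marker, was detected on 1 of 24 knockdown and 0 of 6 control arrays, and CD3E on none, while the leukocyte list's CD14 and CD68 were detected on all 30, with differences of -4.74 to -2.26 for CD14 and -0.09 to 0.34 for CD68. The sum of those last markers ran from 1468 to 2448 on knockdown arrays and from 2614 to 4421 on control arrays. Of the endothelial markers, VWF and KDR were detected on none, PECAM1 on 4 of 24 knockdown and 6 of 6 control arrays (-3.67 to -2.71) and CDH5 on 0 of 24 and 5 of 6. In RNA from whole cultures, fewer cells of a type and less RNA per cell cannot be told apart. Each difference from shControl below therefore compares these cell populations, and the part that the shRNA target or the other differences between the populations play in it cannot be told apart.

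Against shControl, most of the 9 genes were higher in every knockdown. In set 1, 6 of 9 were called higher and 0 lower with shATM, when 24.1% of all genes were called higher and 24.4% lower. On arrays labelled shATR the counts were 7 higher and 0 lower (24.6% and 24.3% of all genes), with shCHK1 6 and 0 (25.4% and 24.8%), and with shCHK2 7 and 0 (26.1% and 25.2%). Set 2 gave 7 higher and 0 lower with shATM (24.9% and 29.3% of all genes), 6 and 1 on arrays labelled shATR (25.6% and 29.1%), 6 and 0 with shCHK1 (25.1% and 28.6%) and 5 and 1 with shCHK2 (25.7% and 29.6%). The median over all genes lay between -0.01 and 0.01. Of all called genes 49.6% to 50.9% were higher in set 1, and 55.5% to 70.4% under median scaling, which moved the median of all genes there to 0.04 to 0.19. The median of the 9 genes was 0.49, 0.97, 1.21 and 0.75 log2 units in set 1 (in the order shATM, shATR, shCHK1, shCHK2) and 0.93, 1.39, 1.09 and 1.23 in set 2. The 4 knockdowns of a set share its 3 control arrays, so their differences are not independent of each other.

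**Figure D1:**
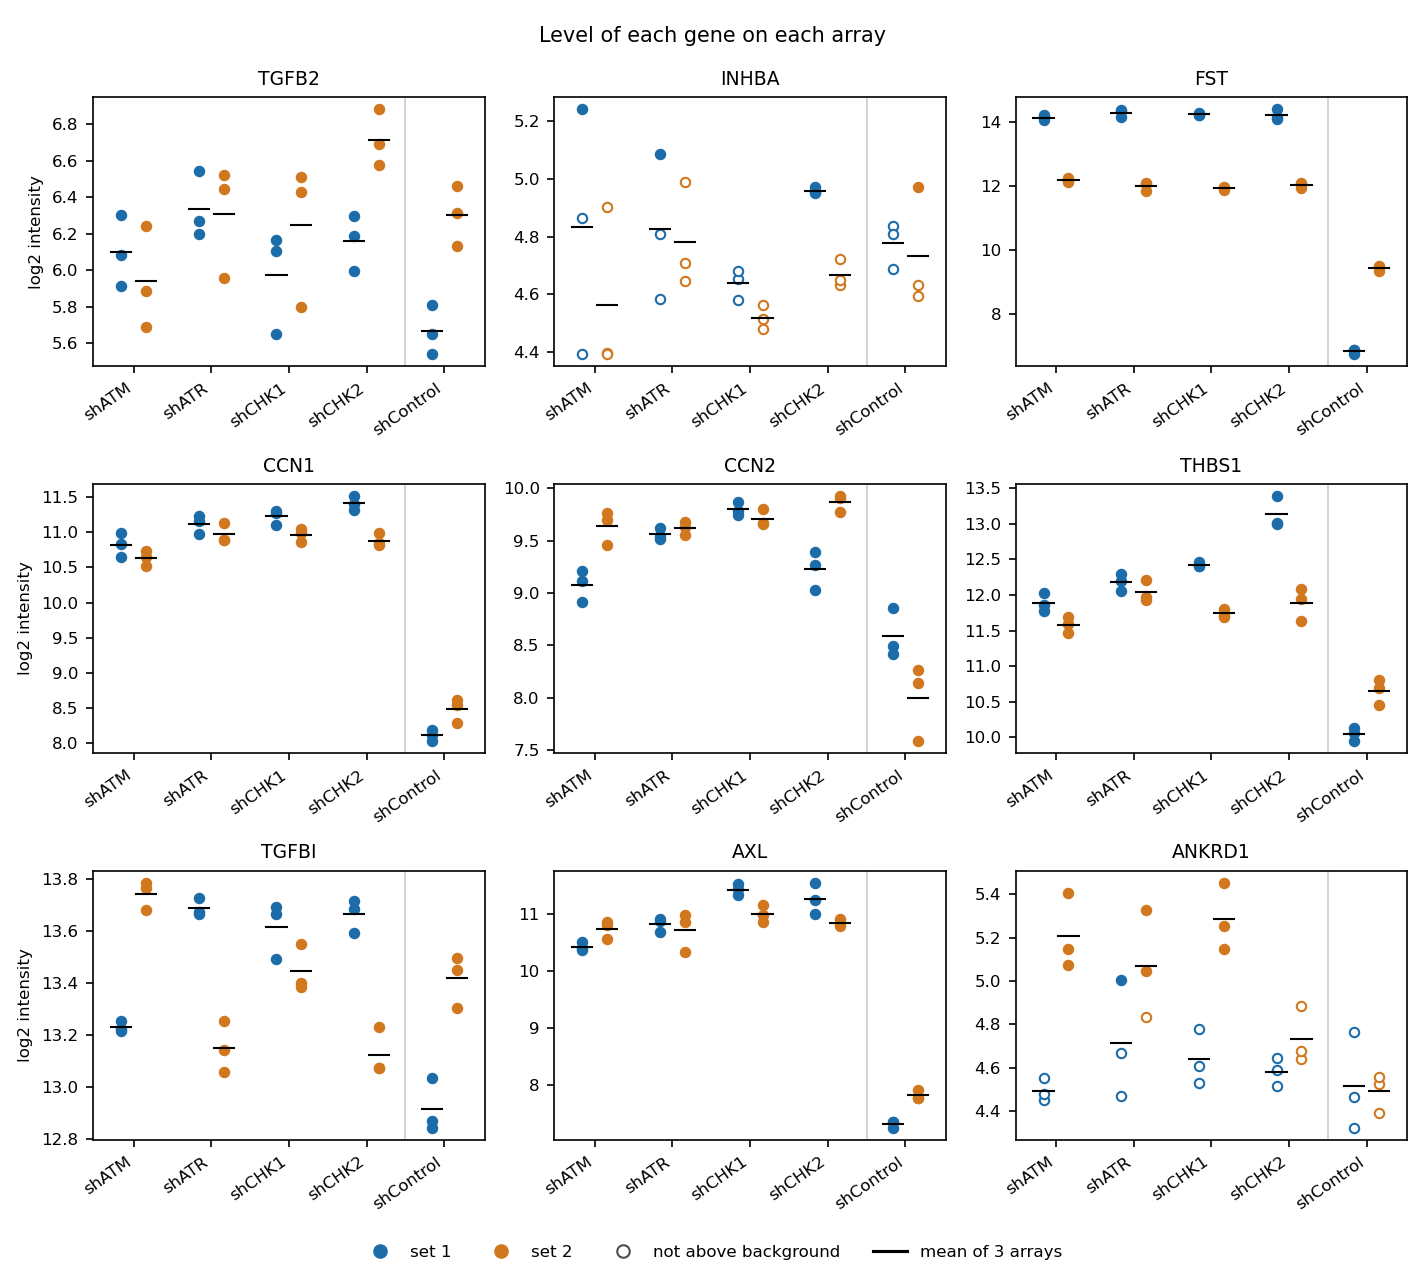
Level of each of the 9 genes on each of the 30 arrays (log2 intensity, own axis per gene), by shRNA, with set 1 in blue and set 2 in orange, open circles where the probe was not above background and bars at the mean of 3 arrays. FST, CCN1, CCN2, AXL and THBS1 lie above shControl in all 8 knockdown groups, whereas INHBA stays near background.

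The ligands come first. TGFB2 (chr1:218345336-218444619, RefSeq annotation of GRCh38.p14, which is used for all gene positions here) encodes a TGF-beta ligand that cells store in latent form. In set 1 it read 5.92, 6.09 and 6.30 with shATM, 6.54, 6.20 and 6.27 on arrays labelled shATR, 5.65, 6.11 and 6.17 with shCHK1 and 6.30, 6.0 and 6.19 with shCHK2, against 5.54, 5.65 and 5.81 with shControl. In set 2 the values were 5.89, 5.69 and 6.24 with shATM, 6.52, 5.96 and 6.45 on arrays labelled shATR, 6.43, 6.51 and 5.80 with shCHK1 and 6.58, 6.69 and 6.88 with shCHK2, against 6.46, 6.13 and 6.32 with shControl. The knockdown arrays stood above shControl in set 1, apart from 1 shCHK1 array, and spread around it in set 2. TGFB2 differed from shControl by 0.67 ± 0.18 on arrays labelled shATR (adjusted p = 0.0035, limma) and 0.49 ± 0.18 with shCHK2 (adjusted p = 0.027), and by 0.43 with shATM and 0.31 with shCHK1, which were not called. With shATM it was called with array weights, with only the 2 groups compared, with the stricter detection filter and without shATM replicate 1, at 0.43 to 0.53 (adjusted p 0.022 to 0.047, limma). The call with shCHK2 was lost on leaving out replicate 1 or 3 of shCHK2 or replicate 1 or 2 of shControl in set 1, where the adjusted p was 0.096, 0.064, 0.094 and 0.061. That call was also lost with chromosome medians subtracted (0.42, adjusted p = 0.061, limma). None of the 4 differences of set 2, which were -0.36, 0.01, -0.06 and 0.41 (SE 0.18 each), was called, although TGFB2 was called with shATM at -0.60 under median scaling and at -0.51 without shATM replicate 3, and with shCHK2 under 5 alternative settings, at 0.20 to 0.42. With shCHK2 of set 2 it was also called without shControl replicate 1 of that set (0.49, adjusted p = 0.0496, limma).

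INHBA (chr7:41685114-41705406) encodes the beta A subunit, of which a pair makes activin A. Its probe was above background on 5 of 24 knockdown arrays and on 1 of 6 control arrays, and the level ran from 4.39 to 5.24 on knockdown arrays and from 4.6 to 4.97 on control arrays. The only group with all 3 arrays above background was shCHK2 of set 1, with 4.95, 4.95 and 4.97. No difference of INHBA from shControl was called in the main fit, and at this signal none could be read as a level. With chromosome medians subtracted, shCHK2 of set 1 was called at 0.42 (adjusted p = 0.033, limma). The median difference of genes on chromosome 7, which carries INHBA, lay between -0.30 and -0.20 over the 8 comparisons with shControl.

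FST (chr5:53480629-53487134) showed the largest differences of the 9 genes. Follistatin, its product, is secreted, binds activin and blocks it. In set 1 it read 14.08, 14.22 and 14.15 with shATM, 14.35, 14.39 and 14.17 on arrays labelled shATR, 14.23, 14.29 and 14.24 with shCHK1 and 14.09, 14.15 and 14.40 with shCHK2, against 6.76, 6.89 and 6.87 with shControl. In set 2 the values were 12.15, 12.25 and 12.15 with shATM, 12.09, 11.87 and 12.06 on arrays labelled shATR, 11.99, 11.95 and 11.88 with shCHK1 and 12.11, 11.96 and 12.07 with shCHK2, against 9.49, 9.35 and 9.51 with shControl. The 24 knockdown arrays split by set with no overlap, and all lay above the 6 control arrays, which also split by set.

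In set 1 FST differed from shControl by 7.31, 7.46, 7.41 and 7.37 log2 units for shATM, shATR, shCHK1 and shCHK2 (SE 0.09), which is 158-fold to 176-fold on this scale. In set 2 the same differences were 2.73, 2.56, 2.49 and 2.6, or 5.62-fold to 6.65-fold, and the largest adjusted p of the 8 was 2.5e-18 (limma). The second FST probe was not above background on any of the 3 shControl arrays of set 1, where it averaged 4.77. It averaged 11.59, 11.78, 11.80 and 11.34 in the knockdowns of that set, at least 99.9-fold, 114-fold, 116-fold and 84.4-fold higher. In set 2 this probe gave 3.53, 3.19, 3.09 and 3.34 (SE 0.12), somewhat more than the first. The median difference of genes on chromosome 5, which carries FST and TGFBI, lay between -0.08 and 0.10 over the 8 comparisons.

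The matricellular proteins CCN1 and CCN2 are secreted, bind integrins and are the most used readouts of YAP. CCN1 (chr1:85580761-85583950) read 10.65, 10.83 and 10.99 with shATM, 10.97, 11.24 and 11.16 on arrays labelled shATR, 11.10, 11.31 and 11.27 with shCHK1 and 11.40, 11.32 and 11.51 with shCHK2 in set 1, against 8.13, 8.19 and 8.04 with shControl. In set 2 it read 10.52, 10.65 and 10.74 with shATM, 10.90, 10.90 and 11.12 on arrays labelled shATR, 10.86, 10.99 and 11.04 with shCHK1 and 10.84, 10.98 and 10.82 with shCHK2, against 8.62, 8.54 and 8.29 with shControl. Every knockdown array lay at 10.52 or above, and every control array at 8.62 or below. CCN1 rose by 2.70, 3.00, 3.10 and 3.29 in set 1 and by 2.15, 2.49, 2.48 and 2.39 in set 2 (SE 0.11, n = 3 arrays a group), 4.44-fold to 9.78-fold, with a largest adjusted p of 2.8e-15 in limma.

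CCN2 (chr6:131948176-131951372) moved less and with a different pattern. In set 1 it read 9.21, 9.11 and 8.92 with shATM, 9.54, 9.52 and 9.62 on arrays labelled shATR, 9.78, 9.75 and 9.87 with shCHK1 and 9.39, 9.03 and 9.27 with shCHK2, against 8.86, 8.42 and 8.5 with shControl. In set 2 it read 9.76, 9.70 and 9.46 with shATM, 9.68, 9.55 and 9.63 on arrays labelled shATR, 9.67, 9.80 and 9.65 with shCHK1 and 9.91, 9.78 and 9.92 with shCHK2, against 8.15, 8.27 and 7.59 with shControl. On the main probe no knockdown group overlapped shControl of its set, although the lowest shATM array of set 1 stood only just above the highest control array. The differences were 0.49, 0.97, 1.21 and 0.64 in set 1 and 1.64, 1.62, 1.71 and 1.87 in set 2 (SE 0.14), 1.40-fold to 3.65-fold, and all 8 were called, with a largest adjusted p of 0.0043. A second CCN2 probe gave 0.52 to 1.24 in set 1 and 1.64 to 1.97 in set 2 (SE 0.19), also called in all 8. On this probe shATM of set 1, at 7.72 to 8.01, overlapped shControl of set 1, at 6.89 to 7.81.

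THBS1 (chr15:39581079-39599466) encodes thrombospondin 1, a matrix glycoprotein that activates latent TGF-beta and is a target of both SMADs and YAP. In set 1 it read 11.86, 11.78 and 12.02 with shATM, 12.20, 12.30 and 12.05 on arrays labelled shATR, 12.40, 12.40 and 12.46 with shCHK1 and 13.01, 13 and 13.39 with shCHK2, against 10.06, 9.95 and 10.14 with shControl. THBS1 in set 2 read 11.47, 11.60 and 11.69 with shATM, 11.97, 11.94 and 12.21 on arrays labelled shATR, 11.80, 11.73 and 11.70 with shCHK1 and 11.64, 11.94 and 12.09 with shCHK2, against 10.70, 10.80 and 10.46 with shControl. The shCHK2 arrays of set 1 stood above all others. THBS1 rose by 1.84, 2.13, 2.37 and 3.08 in set 1 and by 0.93, 1.39, 1.09 and 1.23 in set 2 (SE 0.12), 1.91-fold to 8.46-fold, with a largest adjusted p of 3.1e-07 in limma.

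TGFBI (chr5:136028988-136063818) encodes a secreted adhesion protein named for its induction by TGF-beta, and its direction depended on the set for some shRNAs. In set 1 it read 13.22, 13.22 and 13.25 with shATM, 13.67, 13.72 and 13.66 on arrays labelled shATR, 13.66, 13.49 and 13.69 with shCHK1 and 13.72, 13.68 and 13.59 with shCHK2, against 13.03, 12.84 and 12.87 with shControl. TGFBI in set 2 read 13.68, 13.78 and 13.76 with shATM, 13.25, 13.14 and 13.06 on arrays labelled shATR, 13.39, 13.40 and 13.55 with shCHK1 and 13.07, 13.07 and 13.23 with shCHK2, against 13.50, 13.45 and 13.30 with shControl. All knockdown arrays of set 1 lay above shControl, while in set 2 shATM lay above it, shCHK1 overlapped it and the other groups lay below it. TGFBI rose by 0.31, 0.77, 0.70 and 0.75 in set 1 (SE 0.08, largest adjusted p 0.0026 in limma) and by 0.32 with shATM in set 2 (adjusted p = 0.0018). In set 2 it differed by 0.03 with shCHK1, which was not called, and by -0.27 on arrays labelled shATR and -0.29 with shCHK2 (adjusted p = 0.0087 and 0.0041, limma), and under median scaling in place of quantile normalization those last values turned to 0.053 and 0.033 and were not called, while shCHK1 was called at 0.29. With only the 2 groups compared in the fit, the adjusted p for arrays labelled shATR was 0.096 (limma).

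AXL (chr19:41219223-41261766) encodes a receptor tyrosine kinase for the ligand GAS6 and is a YAP target linked to mesenchymal cell states. In set 1 it read 10.41, 10.38 and 10.51 with shATM, 10.89, 10.92 and 10.70 on arrays labelled shATR, 11.44, 11.34 and 11.53 with shCHK1 and 11.01, 11.55 and 11.25 with shCHK2, against 7.34, 7.25 and 7.34 with shControl. AXL in set 2 read 10.57, 10.86 and 10.82 with shATM, 10.87, 10.98 and 10.34 on arrays labelled shATR, 10.99, 11.16 and 10.87 with shCHK1 and 10.80, 10.84 and 10.91 with shCHK2, against 7.77, 7.92 and 7.78 with shControl. All 24 knockdown arrays lay at 10.34 or above, and all 6 control arrays at 7.92 or below. AXL rose by 3.12, 3.52, 4.13 and 3.96 in set 1 and by 2.93, 2.91, 3.19 and 3.03 in set 2 (SE 0.13), 7.52-fold to 17.5-fold, with a largest adjusted p of 6.3e-16 in limma. Its second probe gave 2.72 to 3.75 in set 1 and 2.67 to 2.91 in set 2 (SE 0.13).

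ANKRD1 (chr10:90912096-90921087) encodes a nuclear ankyrin-repeat cofactor that YAP induces in many cell types. It was near background, and its probe was detected on 9 of 24 knockdown arrays and on 0 of 6 control arrays. In set 2 it read 5.40, 5.15 and 5.07 with shATM, 5.05, 4.83 and 5.33 on arrays labelled shATR and 5.25, 5.45 and 5.15 with shCHK1, against 4.52, 4.56 and 4.39 with shControl. These 9 arrays lay above the control arrays, and 8 of them were above background. ANKRD1 was called in these 3 comparisons (adjusted p = 7.5e-05, 0.00079 and 2.1e-05, limma), in which it was at least 1.22-fold, 1.11-fold and 1.29-fold higher. The shCHK2 arrays of set 2, at 4.64, 4.88 and 4.68, and the knockdowns of set 1, between 4.45 and 5.01, were not called, and only 1 of those 15 arrays read above background.

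**Figure D2:**
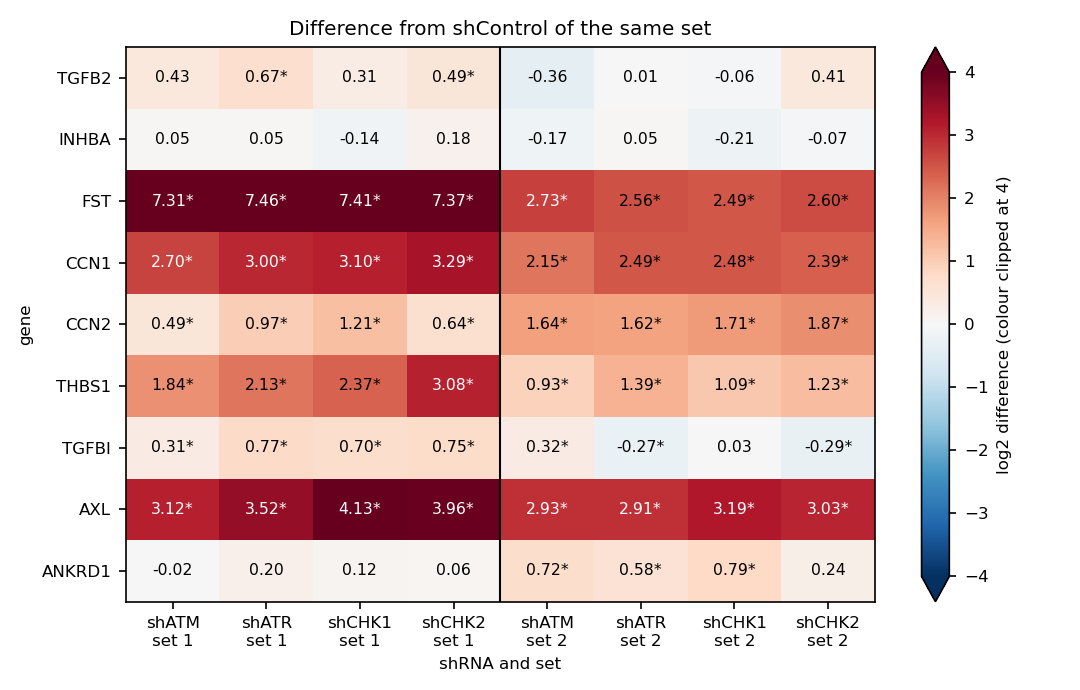
Log2 difference of each gene between each knockdown and shControl of its set, with an asterisk where the adjusted p was under 0.05 (limma). FST reaches 7.46 in set 1 and 2.73 in set 2, whereas CCN2 has its largest value, 1.87, in set 2. No shControl array was above background for ANKRD1, so its plotted values are not levels of change.

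Setting a knockdown against the average of its set's other 3 knockdowns leaves shControl out. In set 1, shATM was the low group: 5 of the 9 genes were called lower and 0 higher, where 5.98% of all genes were called lower and 6.58% higher. AXL differed from the other knockdowns by -0.75 ± 0.11 (adjusted p = 3.0e-05), THBS1 by -0.69 ± 0.10 (2.0e-05), CCN2 by -0.45 ± 0.11 (0.0074), CCN1 by -0.43 ± 0.09 (0.0014) and TGFBI by -0.42 ± 0.07 (9.6e-05), by limma with Benjamini-Hochberg adjustment. Of all genes called in that comparison 52.4% were higher, and 17.5% under median scaling, which moved the median of all genes to -0.13. The median of chromosome 5 genes in that comparison was -0.16, in the same direction as TGFBI, and with each gene's chromosome median subtracted TGFBI differed by -0.25 (adjusted p = 0.016, limma). Without replicate 3 of shATM the CCN2 difference was -0.37 and was not called (adjusted p = 0.078, limma).

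In the same set shCHK1 had 2 genes called higher, AXL by 0.59 ± 0.11 and CCN2 by 0.51 ± 0.11 (3.23% of all genes called higher and 4.66% lower), although the second CCN2 probe gave 0.38 and was not called. With shCHK2 3 genes were called higher (6.44% of all genes called higher and 7.14% lower), THBS1 by 0.97 ± 0.10 (adjusted p = 2.0e-07, limma), AXL by 0.37 ± 0.11 and CCN1 by 0.35 ± 0.09. Replicate 3 of shCHK2 stood apart on the third principal component, at 30.1 against -16.1 to 13.4 for the other knockdown arrays of set 1. Without it THBS1 differed by 0.84 (adjusted p = 1.4e-05, limma) and stayed called, whereas CCN1 at 0.30 (0.092) and AXL at 0.38 (0.11) did not. Without replicate 2 of shCHK2 the AXL difference was 0.23 (0.24). Arrays labelled shATR had 0 members called by limma (1.47% of all genes called higher and 0.459% lower). There, 2 members had an unadjusted limma p under 0.05. The matching share over all genes was not counted, so nothing is read from that number.

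In set 2 the shATM group had TGFBI called higher, by 0.50 ± 0.07 (adjusted p = 9.6e-06, limma), the opposite of its sign in set 1. It also had TGFB2 called lower by -0.48 ± 0.15 (adjusted p = 0.037, limma), THBS1 by -0.31 ± 0.10 (0.047) and CCN1 by -0.30 ± 0.09 (0.023), when 5.65% of all genes were called higher and 4.99% lower. CCN1 was not called without replicate 1 or 2 of shATM (-0.25 and -0.31, adjusted p 0.15 and 0.070 in limma). TGFB2 was lost on leaving out either of those arrays (-0.46 and -0.36, adjusted p 0.12 and 0.24 in limma) or any of 5 arrays of the other knockdowns, and THBS1 in 9 of the 12 leave-outs (-0.36 to -0.25, adjusted p 0.053 to 0.22). With shCHK2, TGFB2 was called higher by 0.55 ± 0.15 (0.028), and TGFBI and ANKRD1 lower by -0.32 ± 0.07 (0.0039) and -0.45 ± 0.11 (0.014), when 2.41% of all genes were called higher and 3.43% lower. The TGFB2 call was lost without any 1 of the 3 shCHK2 arrays (0.47 to 0.62, adjusted p 0.051 to 0.17), and the ANKRD1 call without replicate 1 or 3 (-0.41 and -0.42). Under median scaling none of these 3 shCHK2 values was called (0.57, -0.25 and -0.40, adjusted p 0.057, 0.15 and 0.079 in limma). The ANKRD1 value was also not called without background correction (-0.14, adjusted p = 0.13, limma). With the log2 values deposited by the authors it was -0.15 (adjusted p = 0.13, limma). No shCHK2 array of set 2 was above background for ANKRD1, so its difference there is not a level of change. TGFBI was called lower on arrays labelled shATR, by -0.29 ± 0.07 (0.019, with 1.55% of all genes called higher and 1.4% lower), but not without replicate 2 or 3 of that group (-0.28 and -0.24, adjusted p 0.064 and 0.15 in limma), with array weights (-0.25), under median scaling (-0.22) or with the chromosome median subtracted (-0.21). Replicate 3 of that group stood apart on the third principal component, at 21.2 against 1.64 and 3.64 for its other arrays. With shCHK1, 0 members were called by limma (0.933% of all genes called higher and 1.06% lower). An unadjusted limma p under 0.05 was found for 2 members, again without the matching share over all genes, and nothing is read from it. FST was called in none of these 8 comparisons by its main probe, with differences from -0.14 to 0.19, while its second probe was called lower with shCHK2 in set 1 (-0.38) and higher with shATM in set 2 (0.32).

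**Figure D3:**
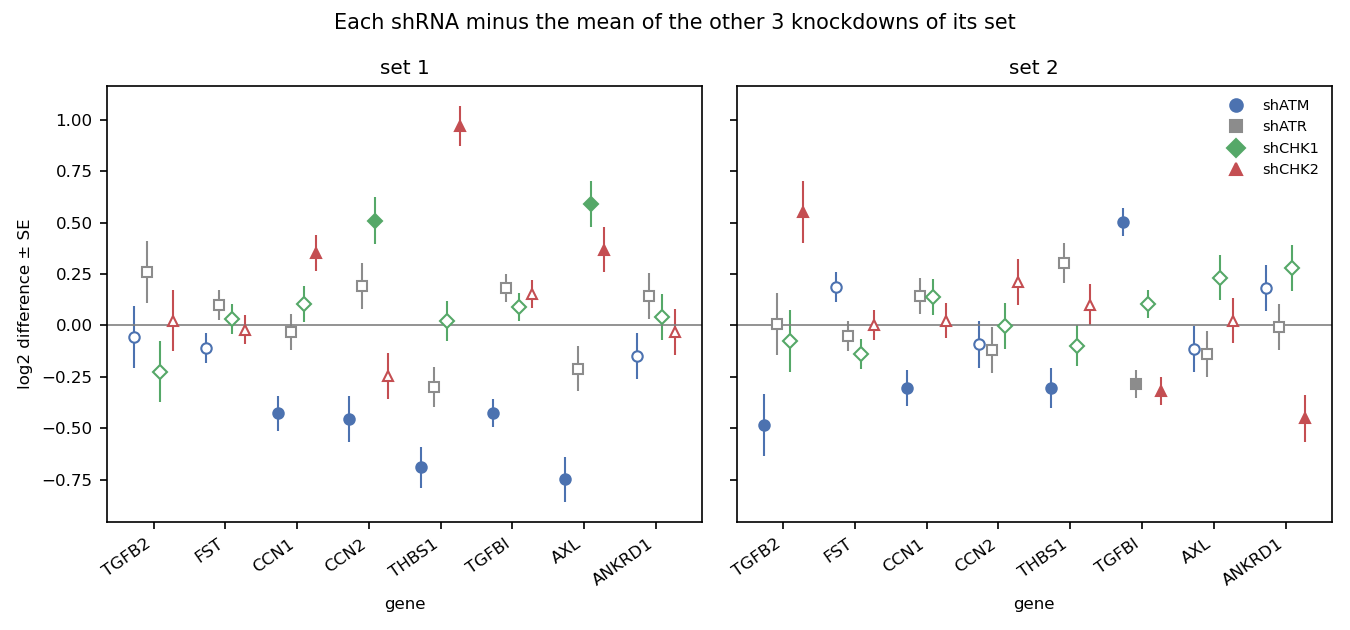
Log2 difference ± SE of each shRNA from the mean of the other 3 knockdowns of its set, set 1 at left and set 2 at right, for the 8 genes other than INHBA, filled where the adjusted p was under 0.05. The shATM points lie below 0 for CCN1, CCN2, THBS1, TGFBI and AXL in set 1, whereas TGFBI with shATM lies at 0.50 in set 2. The ANKRD1 points rest on levels near background, with no shCHK2 array of set 2 above it.

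The same genes differed between the shControl groups themselves. In shControl of set 2 against shControl of set 1, 6 of 9 were called higher and 1 lower, when 8.17% of all genes were called higher and 7.18% lower. FST differed by 2.61 ± 0.09 (adjusted p = 1.4e-16, limma), TGFB2 by 0.64 ± 0.18, THBS1 by 0.60 ± 0.12, AXL by 0.51 ± 0.13, TGFBI by 0.50 ± 0.08 and CCN1 by 0.37 ± 0.11, whereas CCN2 differed by -0.59 ± 0.14. CCN1 was not called without replicate 3 of set 1 or replicate 1 or 2 of set 2 (0.30 to 0.34), nor TGFB2 without replicate 1 or 2 of set 1 or replicate 1 or 3 of set 2 (0.56 to 0.63). Under median scaling CCN1 and CCN2 were not called (0.44 and -0.47, adjusted p 0.057 and 0.061 in limma). The knockdown effects of the sets were then compared within the model as the difference of set 2 minus that of set 1. For shATM 2 of 9 were called higher and 4 lower (12.3% and 17.5% of all genes), and 1 was called higher and 5 lower for shATR (11.6% and 17%), shCHK1 (12.4% and 17.3%) and shCHK2 (13.6% and 18.8%). FST had the largest values, from -4.92 to -4.57 (SE 0.13). THBS1 ranged from -1.85 to -0.74 and CCN1 from -0.90 to -0.52, both called for all 4 shRNAs. Under median scaling the CCN1 value for shATR was -0.56 and was not called (adjusted p = 0.057, limma). CCN2 ran the other way, at 1.15, 0.65 and 1.22 for shATM, shATR and shCHK2, of which 0.65 was not called without shControl replicate 1 of set 1 or replicate 3 of set 2 (0.52 and 0.44) or under median scaling (0.47). With shCHK1 the CCN2 value was 0.50 (adjusted p = 0.056, limma), not called here but called under 10 alternatives, at 0.36 to 0.63, among them the replicate block, in which it was 0.50 (adjusted p = 0.045, limma). Since each of these values contains the difference between the control groups, a smaller effect in set 2 can come with a higher control level, a lower knockdown level, or both. For FST the knockdown means were 11.94 to 12.18 in set 2 and 14.15 to 14.30 in set 1, and the control means were 9.45 in set 2 and 6.84 in set 1.

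**Figure D4:**
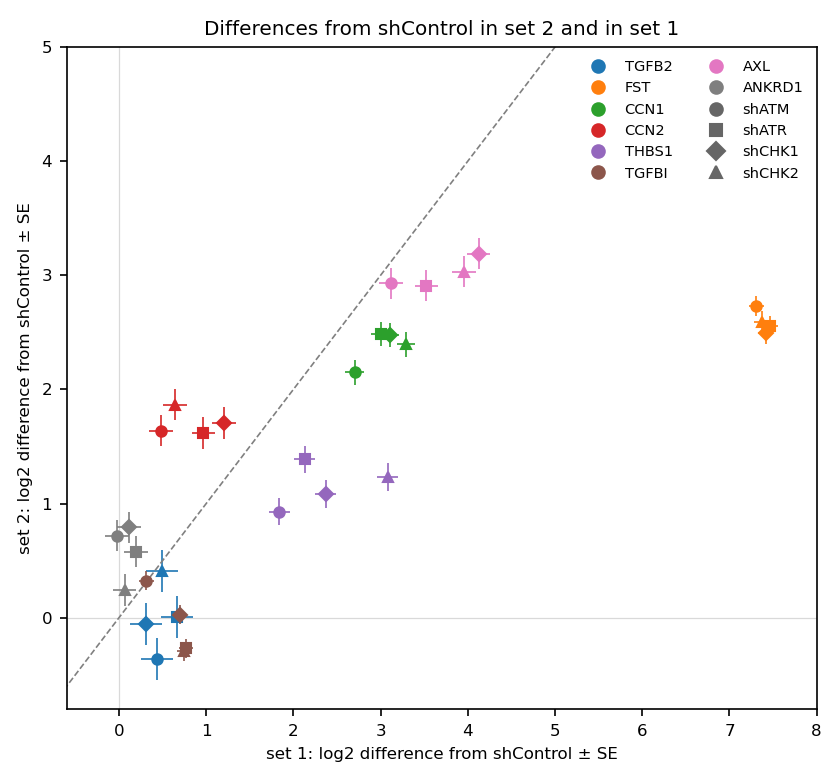
Log2 difference from shControl ± SE in set 2 (vertical axis) and set 1 (horizontal axis) for 8 genes (colours, INHBA left out) and 4 shRNAs (marker shapes), with a dashed line where both are equal. FST lies far to the right of the line, CCN1, AXL and THBS1 below it, and CCN2 above it, while the ANKRD1 points rest on shControl arrays that were not above background.

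The order of the 10 groups differed between genes. CCN1 and THBS1 were highest in shCHK2 of set 1 (means 11.41 and 13.13), and AXL in shCHK1 of set 1 (11.44) with its neighbour shCHK2 of set 1 (11.27) overlapping it. CCN2 was highest in shCHK2 of set 2 (9.87), overlapped by shCHK1 of set 1 (9.80), and its second probe in shCHK1 of set 2 (9.02). TGFBI was highest in shATM of set 2 (13.74), overlapped by arrays labelled shATR of set 1 (13.69). The lowest groups of CCN1, AXL, FST and THBS1 were shControl of set 1 and then shControl of set 2, which overlapped neither each other nor any knockdown group. How many of all genes show such a separation was not counted, so nothing is read from the number of members that do. CCN2 had the reverse order of controls, with 8.0 in set 2 and 8.59 in set 1. Over the 10 group means, the genes most alike in pattern by Pearson correlation were LPAR1 and TPST1 for CCN1 (r = 0.994 for each), RGMB and MEMO1 for CCN2 (0.973 and 0.970), PGBD1 and MTAP for AXL (0.994 and 0.99), AFAP1L2 and ARTN for FST (0.996 and 0.994) and ZNF24 and FADS3 for THBS1 (0.980 and 0.976). For TGFBI they were SNORA67 and RBMS3 (0.874 and 0.862), for TGFB2 INO80 and FGF23 (0.944 and 0.904), and for INHBA and ANKRD1, both near background, ANAPC2 and PSMD1 (0.917 and 0.891) and ALOX5AP and UNC80 (0.955 and 0.953). The control groups lie apart from the knockdown groups, which bears on every one of these coefficients. CCN1 and AXL correlated at 0.991 over the 10 groups but at 0.75 over the 8 knockdown groups, and CCN1 and CCN2 at 0.84 over 10 and -0.15 over 8.

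Other genes of the pathways were taken from 7 lists, of which 86 of 94 entries were tested. In the comparisons with shControl, 24.1% to 26.1% of all genes were called higher and 24.3% to 29.6% lower, and list counts are to be read against those shares. In the YAP and TAZ signature without the 9 genes, 9 to 12 of 16 tested genes were called higher and 1 or 2 lower in set 1, and 8 higher and 4 or 5 lower in set 2, so that its lower counts of set 2 lie near the share over all genes. Its median was 0.75 to 0.89 in set 1 and 0.28 to 0.42 in set 2. NUAK2, a stress-responsive kinase, was detected on 24 of 24 knockdown and 0 of 6 control arrays, and was at least 2.32-fold to 5.91-fold higher in the 8 comparisons. FJX1 rose by 2.03 to 2.45 (SE 0.09) and GADD45A, which is also induced by DNA damage, by 0.67 to 2.62 (SE 0.10), both in all 8. IGFBP3 went the other way, by -7.24 to -5.44 (SE 0.14), and was at least 62.6-fold lower in each of the 4 comparisons where no knockdown array read above background.

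Among 15 tested SMAD target genes other than the members, 7 to 9 were called higher and 5 or 6 lower in set 1, and 7 or 8 higher and 3 to 5 lower in set 2. Of all genes, 24.1% to 26.1% were called higher and 24.3% to 25.2% lower in set 1, and 24.9% to 25.7% higher in set 2. The lower counts of set 2 lie near the 28.6% to 29.6% of all genes called lower there. SNAI2, the transcription factor Slug that drives mesenchymal change, rose by 4.42 to 5.0 in set 1 and 5.72 to 6.28 in set 2 (SE 0.15), and its probe was above background on 5 of 6 control arrays. COL4A1, a basement membrane collagen chain, rose by 1.64 to 2.18 (SE 0.09). CDKN2B, a CDK4 and CDK6 inhibitor that neighbours CDKN2A, was detected on 24 of 24 knockdown and 0 of 6 control arrays, and was at least 2.86-fold to 7.24-fold higher. The main probe of CDKN2A, which MCF-10A is known to have lost, had the same detection pattern. Whether the CDKN2B difference reflects induction or a difference between the populations at this locus was not tested. ID2, a repressor that TGF-beta lowers in epithelial cells, differed by -2.79 to -1.99 (SE 0.15), and was at least 3.49-fold lower in each of the 3 comparisons where no knockdown array read above background.

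Of the 10 tested genes for ligands and ligand processing, 2 or 3 were called higher in every comparison, near the 24.1% to 26.1% of all genes called higher. In set 1, 4 or 5 were called lower and in set 2, 6 or 7, when 24.3% to 29.6% of all genes were called lower. LTBP2, a latent TGF-beta binding protein, rose by 0.67 to 2.52 (SE 0.10), and LTBP3, another, differed by -1.72 to -0.92 (SE 0.13). INHBB, the activin beta B subunit, was detected on 2 of 24 knockdown and 6 of 6 control arrays, and was at least 4.49-fold lower in each of the 6 comparisons where no knockdown array read above background. ITGB8, an integrin chain that activates latent TGF-beta, differed by -2.35 to -1.10 (SE 0.12), with 16 of 24 knockdown and 6 of 6 control arrays above background, and was at least 4.33-fold lower in each of the 2 comparisons where no knockdown array was. 
For the receptors, the SMADs, the Hippo genes and the relatives of the members the counts below stand beside shares over all genes of 24.1% to 26.1% called higher and 24.3% to 29.6% called lower, and nothing is read from them. Of 7 receptors 2 or 3 were called higher and 1 lower in every comparison. ACVR2A, an activin type II receptor, differed by -1.32 to -1.14 in set 1 and by -0.46 to -0.22 in set 2 (SE 0.16), called lower in 6 of 8. ACVR1B, an activin type I receptor, differed by 0.18 to 0.89 (SE 0.13) and TGFBR2, the TGF-beta type II receptor, by 0.15 to 0.51 (SE 0.09), each called higher in 7 of 8. ENG, a co-receptor, was called higher in 4, at 0.81 to 0.97 in set 1 and -0.18 to 0.20 in set 2 (SE 0.21).

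Of 12 SMADs and regulators 1 to 4 were called higher and 3 to 5 lower. BAMBI, a decoy receptor, differed by -3.64 to -2.36 (SE 0.11), and PMEPA1, a SMAD target that damps the signal, by -1.30 to -0.31 (SE 0.13), both called lower in all 8. SKIL, a SMAD corepressor, differed by 0.30 to 1.23 (SE 0.17), called higher in 6 of 8, and SMAD7, the inhibitory SMAD, by 0.44 to 0.88 (SE 0.21), called higher in 7 of 8. Of 17 Hippo kinases, coactivators and TEADs, 4 to 7 were called higher and 4 to 6 lower. TEAD2 differed by -3.21 to -0.68 (SE 0.11) and STK4, a Hippo kinase also known as MST1, by 0.58 to 1.23 (SE 0.12), both called in all 8. TEAD4 differed by 0.25 to 1.30 (SE 0.16), called in 7 of 8, and AMOT, a scaffold that binds YAP, was detected on 3 of 24 knockdown and 6 of 6 control arrays and was called lower in 7. Of 9 relatives and partners of the members, 1 to 3 were called higher and 2 to 4 lower. GAS6, the ligand of AXL, rose by 0.31 to 1.63 (SE 0.11) in all 8. CCN5, a relative of CCN1 and CCN2 that lacks their C-terminal module, differed by -3.19 to -0.84 (SE 0.20) and was detected on 3 of 24 knockdown and 6 of 6 control arrays. It was at least 2.04-fold lower in each of the 5 comparisons where no knockdown array read above background. CD36, a thrombospondin receptor, was detected on 0 of 24 knockdown and 3 of 6 control arrays and was called lower in 4 comparisons, at least 4.41-fold in each. TYRO3, a relative of AXL, was called lower in 6 of 8, at -0.47 to -0.11 in set 1 and -1.29 to -0.96 in set 2 (SE 0.15).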

How the data were processed

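The files hold one value per probe and array from Illumina bead arrays, as probe intensity that the authors exported with a detection p-value for each probe, per the file headers. A second table deposited by the authors gives log2 values of the same arrays, with a median of 6.88 on each array and a correlation of at least 0.998 with the intensities. Its columns share their quantiles, its method was not given in the sources used here, and it served as an alternative. Of 47231 probes, 30113 had 1 gene symbol, 8 several and 17110 none in the platform annotation. Intensities were corrected with normexp (background from the detection p-values, offset 16), quantile-normalized and put on the log2 scale (neqc of limma 3.58.1, R 4.3.3). Probes with a detection p-value under 0.05 on at least 3 arrays were kept, 26967 in all, and the brightest probe by mean stood for each of 13721 genes. The number of detected probes ran from 18984 to 21732 over the arrays, and the number of arrays limits the precision.

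One limma model with the 10 groups (20 residual degrees of freedom) gave each knockdown against shControl of its set, each against the mean of its set's other knockdowns, shControl between sets, and the interaction with set. Benjamini-Hochberg adjustment ran over all genes within a comparison, with a threshold of 0.05. All 9 members were named. For each member the 2 tested genes with the highest Pearson correlation over the 10 group means were named, and from each of the 7 lists up to 4 genes with the largest absolute mean difference over the 8 comparisons with shControl, besides the targeted genes and CCNE1. The fit was tested on simulated data. The members, lists and tests were chosen with earlier results of these data known. On average the replicate numbers did not pair arrays across groups, although 1 of 45 pairs of groups had a same-number correlation over 0.1. Where no array of a group was above background, a fold is given as a bound, against, per array, the higher of the lowest signal among detected probes and the value of the dim probe itself. Alternatives were other background corrections, normalizations, filters and probes, array weights, smaller fits, chromosome medians subtracted, the authors' log2 values, a replicate block and each array left out.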

Additional observations from a re-analysis of the deposited data

Results flagged for a closer look

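For 8 of the 9 genes, all but INHBA, the difference from shControl was not the same in set 2 and set 1 for at least 1 shRNA, by the interaction term of the limma model (24 values with an adjusted p under 0.05, set 2 minus set 1, on the log2 scale). For a given shRNA, 11.6% to 13.6% of all genes were called higher in this term and 17% to 18.8% lower. The share of all genes called for at least 1 shRNA was not counted, so nothing is read from the 8 of 9. FST gave -4.57 with shATM, -4.91 on arrays labelled shATR, -4.92 with shCHK1 and -4.78 with shCHK2, with a largest adjusted p of 7.8e-19. Its level was lower in the knockdowns of set 2 than in those of set 1, and higher in shControl of set 2 than of set 1.

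THBS1 gave -0.91, -0.74, -1.28 and -1.85 in the same order of shRNAs, and CCN1 gave -0.56, -0.52, -0.62 and -0.90. The CCN1 value on arrays labelled shATR was not called under median scaling (-0.56, adjusted p = 0.057, limma). Both genes were above shControl in each set, by less in set 2. AXL gave -0.61 on arrays labelled shATR, -0.94 with shCHK1 and -0.93 with shCHK2, and the first was not called without shATR replicate 3 of set 2 (-0.42, adjusted p = 0.064, limma).

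TGFBI gave -1.04 on arrays labelled shATR, -0.67 with shCHK1 and -1.04 with shCHK2, where shControl itself was higher by 0.50 in set 2. TGFB2 gave -0.80 with shATM, a call that was lost without shATM replicate 3 of set 1 or 2 of set 2, or without replicate 1 of shControl in either set (-0.74 to -0.67). CCN2 went the other way, with 1.15 for shATM, 0.65 on arrays labelled shATR and 1.22 for shCHK2, and ANKRD1 gave 0.74 with shATM and 0.67 with shCHK1, from levels near background, with no shControl array above it. Without background correction the last was 0.21 and was not called (adjusted p = 0.11, limma). What the sets are was not stated in the labels, so a difference between them cannot be told apart from any other feature that the arrays of a set share.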

How the results depend on the processing

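The 8 comparisons with shControl kept their counts of called members within 1.5 times under each of the 11 alternative settings. Against the other knockdowns of the set, arrays labelled shATR of set 1 had 1 member called with array weights or the authors' log2 values, against 0. With array weights shATM of set 2 had 1, against 4. Arrays labelled shATR of set 2 had 0 with array weights, chromosome medians subtracted or median scaling, and 2 without background correction or with the authors' log2 values, against 1. With median scaling shCHK2 of set 2 had 0, against 3. The cause was not tested.

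Leaving out 1 array at a time gave 1 to 3 called members for shCHK2 of set 1 against the other knockdowns, 1 to 4 for shATM of set 2, 0 to 1 for arrays labelled shATR of set 2 and 1 to 3 for shCHK2 of set 2, and 5 to 6 (against 7) for shControl between sets.

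Values near 0 changed sign. TGFB2 on arrays labelled shATR of set 2 was -0.017 with array weights, -0.020 with chromosome medians subtracted and -0.10 with median scaling, and -0.10 to 0.18 with 1 array left out. TGFB2 with shCHK1 of set 2 ran from -0.19 to 0.17 with 1 array left out. TGFBI with shCHK1 of set 2 was -0.032 with chromosome medians subtracted, and -0.029 to 0.067 with 1 array left out. With median scaling TGFBI was 0.053 on arrays labelled shATR and 0.033 with shCHK2 in set 2, and neither was called.

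Over all genes, array weights moved the calls against the other knockdowns to 2643 from 1724 for shATM, 699 from 265 for shATR and 1782 from 1083 for shCHK1 in set 1, and to 142 from 404 for shATR in set 2. Median scaling gave 641 for shCHK1 of set 1, and 221, 115 (from 274) and 398 (from 800) for shATR, shCHK1 and shCHK2 of set 2. Without replicate 3, shCHK2 of set 1 had 654 calls, from 1862, and arrays labelled shATR of set 2 had 194. The other leave-outs that moved a count by over 1.5 times gave 986 to 1072 for shATM, 128 to 169 for shATR and 695 to 703 for shCHK1 in set 1, and 153 to 170 for shCHK1 and 498 to 526 for shCHK2 in set 2.

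On average replicate numbers did not pair arrays: deviations of same-numbered arrays correlated at 0.011, and those of other arrays at -0.0054. The same-number correlation was over 0.1 in 1 of 45 pairs of groups, and the highest was 0.48. With the replicate number as a block, 108 of 108 reported values kept their direction and call, and 20 of 21 comparisons their member count, the exception being CCN2 in the interaction for shCHK1, which became called. Signal over background limits INHBA and ANKRD1, which were not above background on most arrays.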
